A study of Mus musculus with 4 samples.

Results

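C1q-high macrophages were taken from single-cell RNA sequencing of sorted CD45+ immune cells of mouse skin, as the cells rich in transcripts of the complement genes C1qa, C1qb and C1qc. A cell was a member when it had at least 1000 UMIs (unique molecular identifiers, each standing for 1 captured transcript), at most 15% of them mitochondrial, at least 20 UMIs of the 3 C1q genes together and at least 1 UMI of Csf1r, with at most 1 UMI of Cd3e, 5 of Cd207 and 2 of Top2a plus Mki67, and within 1 further limit. This gate chose 1953 of the 13124 cells that passed the UMI and mitochondrial limits, out of 14795 deposited cells. The 9 genes of the gate and the share of cells inside it were chosen by measured values and are described without a test.

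The libraries came from 2 control skins of C57 mice that received no tumor cells and from 2 skin tumors grown in C57BL/6 mice from the 2323 line. The hosts were females and males of 8 to 10 weeks, 2323 cells were injected into the flank, and tissues were collected about 2 weeks later. The line came from a tumor of a K14rtTA/tetOCre mouse, in which a keratin 14 promoter drives the inducible Cre, with loss of P53, so the tumors are grafts of 1 cultured line and not tumors that arose in the host. Tissues were digested with collagenase, and live cells (CD45+ and DAPI-) were sorted before droplets were loaded. The labels do not say whether the 2 libraries of a group came from separate animals, so p-values measure the spread between these samples, which may be technical.

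C1q is the recognition part of the classical complement pathway, and tissue macrophages are its main source outside the blood. C1q binds antibody complexes, dying cells and debris, and macrophages that make it are known for clearing dead cells and lipid, and for presenting antigen. In skin, long-lived dermal macrophages carry such a program together with scavenger receptors, whereas monocytes that enter inflamed or tumor tissue take up parts of it as they mature and are responsive to interferons from lymphocytes.

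The gate held 44 and 139 cells of control skin 1 and 2, and 1346 and 424 cells of skin tumor 1 and 2. Their UMIs summed to 836104, 2528465, 28164548 and 9317610, with medians of 18472, 15700, 19793.5 and 20710 UMIs per cell. By summed UMIs control skin 1 held the least and skin tumor 1 the most, while the median per cell was lowest in control skin 2 and highest in skin tumor 2. Skin tumor 2 stood apart by immunoglobulin, mast cell and neutrophil transcripts among its gated cells, with B and plasma cell markers at 788 CPM (UMIs of a gene per 1000000 UMIs of the library's gated cells, scaled between libraries by TMM) against 54.5, 110 and 85.4 CPM in control skin 1, control skin 2 and skin tumor 1. Between 1 and 7 barcodes were shared by any pair of libraries, and no gated barcode was. Transcripts of the Y-linked gene Ddx3y stood at 104, 102, 76.7 and 116 CPM in the gated cells of the 4 libraries, and Xist at 0, 0, 0.988 and 0 CPM, while the hosts are described as of both sexes.

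The label was compared with markers that the gate did not use, with CD3-expressing lymphocytes as the background. Ms4a7, a membrane protein of mature macrophages, was found in 68.2%, 72.6%, 62.8% and 50.6% of the gated cells of control skin 1 and 2 and skin tumor 1 and 2 after each cell had been thinned to 5000 UMIs, against 1.38%, 1.72%, 1.27% and 5.13% of CD3-expressing lymphocytes thinned alike. The F4/80 gene Adgre1 was found in 63.6%, 83.7%, 67.6% and 61.8% of gated cells and in at most 4.62% of those lymphocytes. Apoe, the apolipoprotein that macrophages load with cholesterol, was found in 77.3%, 92.6%, 91.9% and 91.7% of gated cells, against 10.4%, 23.9%, 28.8% and 35.0% of lymphocytes. Flt3, the receptor that marks dendritic cells, stood at 9.09, 8.95, 2.39 and 3.83 CPM. Against C1q-low monocyte-like cells (defined below) the markers differed. In CPM of summed UMIs, Ms4a7 stood at 492, 560, 480 and 275 in gated cells and at 34.4, 31.7, 45.9 and 4.94 in monocyte-like cells. Fcgr1 overlapped, at 112, 160, 238 and 135 against 68.8, 179, 192 and 167, and so did Itgam, at 105, 136, 215 and 211 against 103, 165, 159 and 141.

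Gated cells made up 1.41% of the cells of control skin 1 (95% Clopper-Pearson interval 1.03 to 1.89), 4.36% of control skin 2 (3.68 to 5.12), 28.0% of skin tumor 1 (26.7 to 29.3) and 21.1% of skin tumor 2 (19.4 to 23). The means were 2.89% ± 2.08 (SD, n = 2) in control skins and 24.5% ± 4.84 (SD, n = 2) in skin tumors. Both tumors lay above both control skins, although 2 libraries against 2 cannot give an exact permutation p below 0.333. The intervals cover counting error only. When the gate was applied after every cell had been thinned to 5000 UMIs, an alternative chosen after the data had been seen, control skins had 1.92% ± 1.37 and skin tumors 24.1% ± 6.97 (SD, n = 2 each).

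The clauses of the gate did not act alike in the 2 tissues. The Cd3e clause removed 101 of 173 and 159 of 354 cells that had passed the clauses before it in control skin 1 and 2, but 38 of 1650 and 51 of 543 in skin tumor 1 and 2. The clause on the proliferation genes Top2a and Mki67 removed 4 of 48, 14 of 153, 261 of 1607 and 65 of 489 cells in the same order, and the clause on the Langerhans cell gene Cd207 removed 24 of 72, 42 of 195, 5 of 1612 and 3 of 492. Cell numbers therefore describe this gate and not all macrophages of the tissue.

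**Figure D1:**
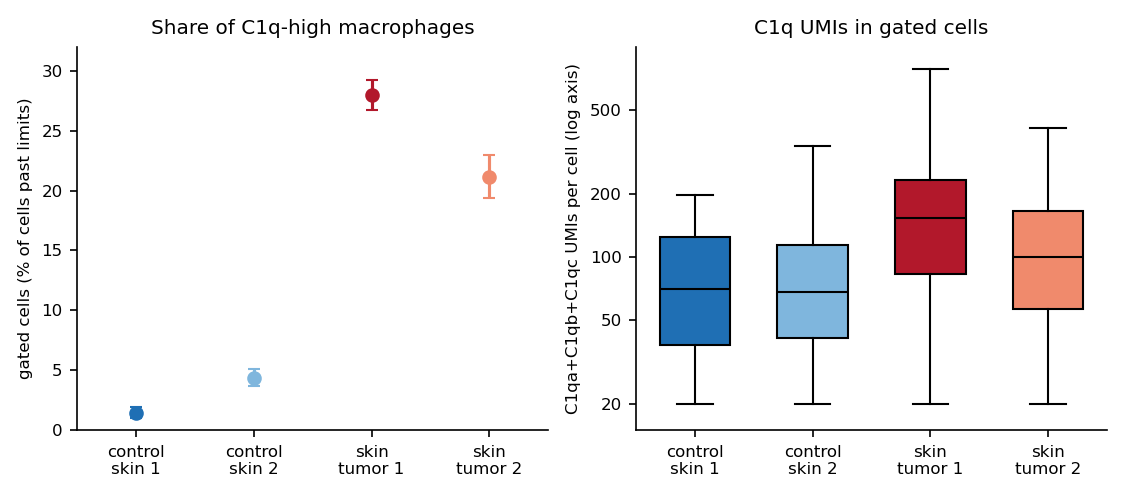
Left, gated cells as a percent of the cells past the UMI and mitochondrial limits in each library, with exact 95% intervals. Right, C1q UMIs per gated cell on a log axis (box, quartiles; line, median; whiskers, full range); the 2 control skins have shares of 1.41% and 4.36% and the 2 skin tumors of 28.0% and 21.1%, and the C1q medians are 70.5 and 68 UMIs against 153 and 99.5 UMIs.

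Among gated cells the median C1q sum was 70.5 and 68 UMIs in control skin 1 and 2 and 153 and 99.5 UMIs in skin tumor 1 and 2. Per 10000 UMIs of the cell the medians were 44.3, 45.3, 76.7 and 51.9. The highest single cell held 783 C1q UMIs and came from skin tumor 1. Only 65 cells lay just inside the threshold, at 20 to 24 C1q UMIs, and 89 cells lay just outside, at 15 to 19. In CPM of the summed UMIs of control skin 1, control skin 2, skin tumor 1 and skin tumor 2, Apoe stood at 1924, 2268, 1236 and 1639 just inside and at 979, 3501, 2304 and 1432 just outside. The dendritic cell lectin gene Cd209a stood at 0, 19.9, 2.70 and 41.3 inside and at 198, 201, 9.20 and 0 outside. For both genes the direction differed between libraries.

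To ask how the tumor environment goes with the state of these cells, the UMIs of each library's gated cells were summed, and skin tumors were compared with control skins in a fit over all genes by the quasi-likelihood test of edgeR, with p-values adjusted by the method of Benjamini and Hochberg. Of 11286 genes outside the gate, 59 (0.523%) were higher and 44 (0.39%) lower in skin tumors at an adjusted p under 0.05. The rises held guanylate-binding and immunity-related GTPases of the interferon response, the chemokines Ccl5, Ccl8 and Cxcl10 and the inflammatory gene Il1b. They also held Nos2, which the tumors alone carried past the filter on low counts, so that its call is a description. The falls held the growth factor Igf1, the scavenger receptor Cd163, and the lipid genes Lpl and Pparg. Both tumors lay above both control skins for 24.1% of all genes tested and below them for 20.7%, and the median log2 fold change of all genes was 0.03.

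The number of calls varied with the libraries in the fit. A fit without 1 library leaves its group with a single library, which is assumed to vary like the other group. Without control skin 1, edgeR called 0 genes higher and 0 lower, with 663 and 517 genes at an unadjusted p under 0.05. Without control skin 2 it called 0 and 0, with 808 and 452 at an unadjusted p under 0.05, whereas leaving out skin tumor 1 gave 279 and 181 calls and leaving out skin tumor 2 gave 428 and 547. All 59 rises were in the same direction in each of these fits, and so were all the falls that could be tested (42 to 44 of 44). These genes had been called from the same libraries, so the shared direction follows largely from that choice and is no independent support. DESeq2 called 125 genes higher and 179 lower, and a fit with the replicate number as a block 136 and 139. When 44 cells were drawn from each library, an alternative chosen after the data had been seen, 7 genes were called higher and 5 lower.

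**Figure D2:**
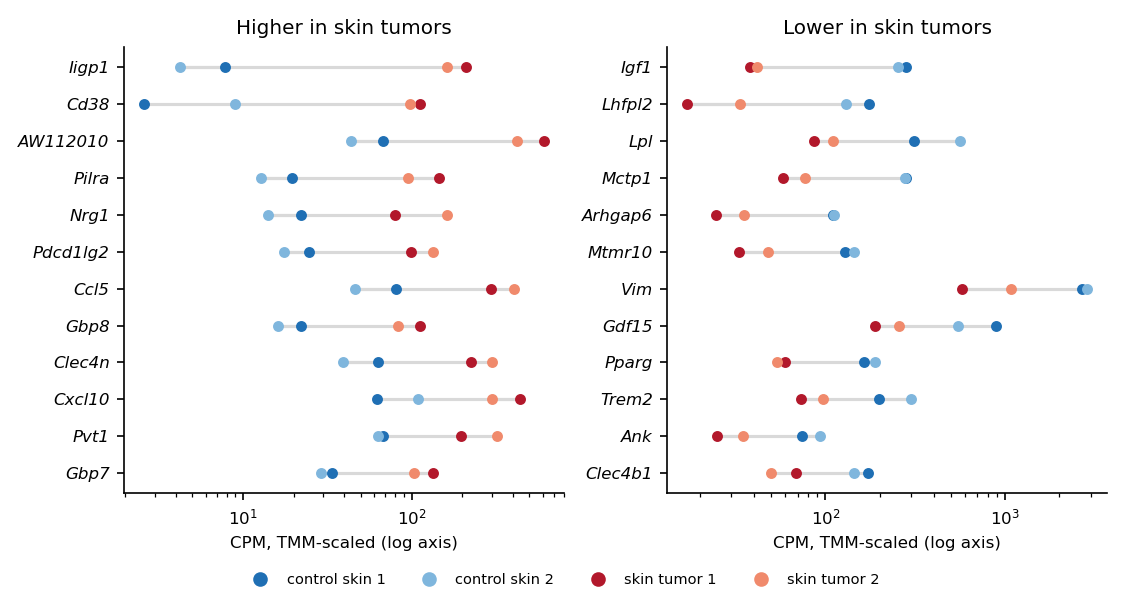
Level of the 12 genes with the largest rises (left) and the 12 with the largest falls (right) in each library's gated cells, in TMM-scaled CPM on a log axis; each point is 1 library and the grey line joins the 4. No tumor overlaps a control skin for any of these genes, which was a condition for being named.

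Interferons, bound by their receptors on macrophages, act on GTPases, antiviral effectors and chemokines. Of 48 listed interferon response genes, all tested, 11 rose and 0 fell, against 0.523% and 0.39% of all genes tested, and the list's median log2 fold change was 1.11 beside 0.03 for all genes. Both tumors lay above both control skins for 38 of the 48 genes, against 24.1% of all genes. The list's median stayed between 0.91 and 1.33 in every alternative fit, but the number of rises ranged from 0 without a control skin to 32 without skin tumor 2.

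Iigp1, a GTPase that attacks the vacuoles of intracellular parasites, stood at 7.79 and 4.26 CPM in control skin 1 and 2 and at 211 and 163 CPM in skin tumor 1 and 2. Both tumors were far above both control skins, with a log2 fold change of 5.14 (SE 0.34, adjusted p = 0.00132 by edgeR's quasi-likelihood test), a 35.2-fold rise. Gbp4, a guanylate-binding protein of the same defense, stood at 3.90, 7.67, 67.3 and 55.6 CPM in the same order of libraries (log2 fold change 3.24, SE 0.33, adjusted p = 0.00486 by edgeR). Gbp8 stood at 22.1, 16.2, 113 and 83.5 CPM (log2 fold change 2.42, SE 0.28). Gbp4 (mm10, chromosome 5, 105115767 to 105139586) and Gbp8 (chromosome 5, 105014150 to 105139540) overlap on the same strand in the annotation, so reads of the pair may have been assigned unevenly. Gbp5 stood at 9.09, 3.41, 37.0 and 36.2 CPM and rose (log2 fold change 2.82, SE 0.41). Gbp7 stood at 33.8, 29.0, 133 and 104 CPM (log2 fold change 1.94, SE 0.24). In all 5 genes the groups did not overlap, which for Iigp1, Gbp8 and Gbp7 was a condition for being named among the largest rises. Of all genes tested, 24.1% were above both control skins in both tumors.

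The antiviral genes Ifit1, Mx1 and Rsad2 rose by log2 fold changes of 1.98, 2.06 and 1.22, and the GTPase genes Igtp and Irgm1 by 2.64 and 1.54. Ifnb1, the gene of interferon beta, had no more than 3 UMIs in the 2 control skins together and is given as a description. Its 0, 3, 588 and 184 UMIs gave 0.892 CPM in control skins and 20.6 CPM in skin tumors, a ratio of 23.1. The 95% counting interval of 7.87 to 112 does not cover the spread between libraries. Oasl1, the list's most abundant member, stood at 277, 210, 501 and 540 CPM, with an adjusted p = 0.0690 (edgeR) that missed the threshold.

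The window of 250 bases upstream of the transcription start was searched for 2 interferon motifs. The windows were taken from RefSeq (GRCm38.p6), which had one for 39 of the 59 rising genes, for 35 of the 44 falling genes, and for 6 of the 11 rising genes of the interferon list. The interferon-stimulated response element was searched as TTTC, 2 bases of any kind and TTTC, and the gamma-activated site as TTC, 3 bases of any kind and GAA, on both strands, and matches may overlap. The first was in 11 of 39 rising genes (28.2%), 2 of 35 falling genes (5.71%) and 3.46% of all 27025 genes with a window, and the second in 8 of 39 (20.5%), 0 of 35 and 8.13%. All 6 rising interferon list members with a window held the first motif, and 60.5% of the list's 38 tested members with a window did. A match is a description of letters and not a bound site. Stretches around the first motif are shown for these 6 genes, 5′ to 3′ on the gene's strand, with the matched letters in capitals.
Ifit1 (chr19:34640784-34640833, + strand): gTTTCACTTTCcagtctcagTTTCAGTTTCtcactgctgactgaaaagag
Rsad2 (chr12:26456543-26456592, - strand): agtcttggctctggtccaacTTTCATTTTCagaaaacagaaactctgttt
Gbp5 (chr3:142496749-142496798, + strand): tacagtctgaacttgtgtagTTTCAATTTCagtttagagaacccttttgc
Gbp7 (chr3:142530263-142530312, + strand): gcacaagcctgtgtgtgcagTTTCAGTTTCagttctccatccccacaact
Igtp (chr11:58199502-58199551, + strand): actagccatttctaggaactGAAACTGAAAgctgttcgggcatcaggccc
Irgm1 (chr11:48871421-48871464, - strand): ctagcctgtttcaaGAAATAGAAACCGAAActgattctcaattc
In Ifit1 and Irgm1 the window held 2 matches, and in Igtp and Irgm1 the match was on the opposite strand. The nearest match began 24 bases before the start in Irgm1 and the farthest 165 bases before it in Gbp5.

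Chemokines are secreted proteins that direct leukocytes. Of 19 tested, 3 rose and 0 fell, against 0.523% and 0.39% of all genes, with a median log2 fold change of 0.25. Ccl5, a ligand of Ccr1, stood at 80.5 and 46.0 CPM in control skins and 294 and 407 CPM in skin tumors (log2 fold change 2.52, SE 0.31, adjusted p = 0.0130 by edgeR). Cxcl10, a ligand of the T cell receptor Cxcr3, stood at 62.3, 109, 438 and 299 CPM (log2 fold change 2.07, SE 0.31, adjusted p = 0.0250 by edgeR). Ccl8, which attracts monocytes and memory T cells, was already strong in control skins, at 535 and 463 CPM, and stood at 1725 and 1470 CPM in tumors (log2 fold change 1.68, SE 0.23, adjusted p = 0.0142 by edgeR). All 3 genes were higher in both tumors than in both control skins, against 24.1% of all genes. For Ccl5 and Cxcl10 this was a condition for being named among the largest rises. With cells that held more than 2 UMIs of another lineage's markers removed, Ccl5 was the only one of the 3 still called (adjusted p = 0.0745 for Ccl8 and 0.0847 for Cxcl10 by edgeR), and the Cxcl10 call was also lost at C1q thresholds of 10 and 40 (0.0514 and 0.278) and in an alternative gate (0.508).

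Cxcl9, the other interferon-induced ligand of Cxcr3, did not pass the test. It stood at 564 CPM in control skin 1, 8.95 in control skin 2, 1020 in skin tumor 1 and 634 in skin tumor 2 (log2 fold change 1.58, SE 2.04, adjusted p = 0.860 by edgeR). The control skins thus lay far apart from each other. By cells the groups were more distinct: at 5000 UMIs per cell, Cxcl9 was found in 11.4% and 2.22% of gated cells of control skins and in 55.5% and 46.8% of those of skin tumors, against 0.376%, 0.264%, 4.58% and 6.84% of lymphocytes. Without thinning the 4 shares of gated cells were 11.4%, 2.16%, 71.8% and 63.2%. The list's most abundant member was Cxcl2, which draws neutrophils, at 3506, 4703, 998 and 2273 CPM, without passing the test (log2 fold change -1.33).

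Of 7 chemokine receptors tested, Ccr1 rose and 0 fell, against 0.523% and 0.39% of all genes. Ccr1, which binds Ccl3, Ccl5 and Ccl8 among others, stood at 53.2 and 88.2 CPM in control skins and 231 and 284 CPM in skin tumors (log2 fold change 1.82, SE 0.27, adjusted p = 0.0206 by edgeR). With the C1q threshold set per 10000 UMIs its adjusted p was 0.0621. It was found in 11.4% and 22.2% of gated control cells and in 57.1% and 62.2% of gated tumor cells, against at most 11.1% of lymphocytes in any library. Ccr2, the receptor by which monocytes leave the marrow, stood at 310, 345, 270 and 203 CPM, with an adjusted p = 0.434 (edgeR).

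Of 29 tested genes of tumor macrophage effectors, 3 rose and 1 fell, against 0.523% and 0.39% of all genes, with a median log2 fold change of 0.08. Il1b, the gene of the inflammatory cytokine interleukin 1 beta, stood at 468, 370, 1115 and 1369 CPM (log2 fold change 1.57, SE 0.24, adjusted p = 0.0228 by edgeR), and its call was lost at a C1q threshold of 40 (adjusted p = 0.0622) and with equal cell numbers (0.407). Nos2, the inducible nitric oxide synthase, had 0, 2, 513 and 206 UMIs, which is 0.594 CPM in control skins and 19.2 CPM in skin tumors, a ratio of 32.3 (95% counting interval 8.90 to 267). The tumors alone carried Nos2 past the filter on low counts, so its call is given as a description. A Nos2 UMI was found in 2.03% and 4.28% of gated tumor cells at 5000 UMIs, against 0 and 0.855% of tumor lymphocytes. Pdcd1lg2, the gene of the checkpoint ligand PD-L2, stood at 24.7, 17.5, 99.3 and 134 CPM (log2 fold change 2.53, SE 0.28, adjusted p = 0.00695 by edgeR), but had a log2 fold change of 1.09 and no call at a C1q threshold of 10 (adjusted p = 0.765). Trem2, the lipid receptor of this list, fell and is described with the lipid genes. The most abundant member, Lgals3, stood at 3444, 3039, 978 and 1748 CPM without passing the test (adjusted p = 0.120 by edgeR).

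Genes of other groups that rose were few. Of 14 tested complement genes other than C1q, C6 rose, against 0.523% of all genes: it had 0, 2, 744 and 148 UMIs, a ratio of 40.03 (95% counting interval 11.1 to 331). The tumors alone carried C6 past the filter on low counts, so its call is given as a description. C6 is a part of the membrane attack complex. Hif1a, the oxygen-sensing transcription factor, stood at 129, 132, 294 and 458 CPM (log2 fold change 1.53, SE 0.26, adjusted p = 0.0326 by edgeR), and was the only one of 25 tested glycolysis and hypoxia genes to rise, against 0.523% of all genes. Of the 25, 21 had a positive log2 fold change, against 52.4% of all genes, and the list's median was 0.45 (0.75 without control skin 1 and 0.20 without control skin 2). Among early response genes of cell dissociation, which bear on the digestion of the tissue, the chaperone gene Hsph1 rose (317, 180, 784 and 802 CPM; log2 fold change 1.69, SE 0.29) and Fosb fell (269, 318, 120 and 142 CPM; log2 fold change -1.17, SE 0.21, adjusted p = 0.0481 by edgeR), out of 25 tested and against 0.523% and 0.39% of all genes. The Fosb call was lost in 5 alternatives with all 4 libraries (adjusted p from 0.0523 to 0.156 by edgeR). Among them were those with doublets removed and with other lineages removed, where its log2 fold change was -1.17 and -1.10. The Hsph1 call was lost in 3, among them a C1q threshold of 40 (adjusted p from 0.0698 to 0.0927 by edgeR).

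Outside the lists, the largest rises among genes of at least 50 CPM were those of Cd38, AW112010, Pilra, Nrg1, Clec4n and Pvt1. Cd38, an enzyme that consumes NAD and is a marker of inflammatory macrophages, stood at 2.60 and 8.95 CPM in control skins and 112 and 97.9 CPM in skin tumors (log2 fold change 3.91, SE 0.37, adjusted p = 0.00333 by edgeR). Clec4n, which encodes the fungal receptor Dectin-2, stood at 63.6, 39.2, 224 and 300 CPM (log2 fold change 2.4, SE 0.29), with an adjusted p = 0.0622 (edgeR) at a C1q threshold of 10. It was found in 18.2% and 8.15% of gated control cells and 57.8% and 67.0% of gated tumor cells, against at most 3.42% of lymphocytes. Pilra, an inhibitory receptor of myeloid cells, stood at 19.5, 12.8, 146 and 95.8 CPM (log2 fold change 2.998, SE 0.32), a value that is uncertain where reads are shared with its paralogs Pilrb1 and Pilrb2. Nrg1, the gene of the ERBB receptor ligand neuregulin 1, stood at 22.1, 14.1, 79.9 and 161 CPM, but its adjusted p = 0.0487 (edgeR) was close to the threshold and exceeded it after RLE scaling, with doublets removed and in other alternatives. The long noncoding RNA gene Pvt1 stood at 67.5, 63.1, 198 and 320 CPM (log2 fold change 1.99), a value that moved to 0.83 with doublets removed and lost its call in 5 alternatives (adjusted p from 0.156 to 0.507 by edgeR). AW112010 stood at 67.5, 43.9, 611 and 425 CPM. Htr7, the gene of a serotonin receptor, lay below 50 CPM on average and was chosen after its values had been seen. It had 1, 1, 2161 and 444 UMIs, a ratio of 117 (95% counting interval 32.3 to 966). These values are a description, and the interval does not cover the spread between libraries.

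**Figure D3:**
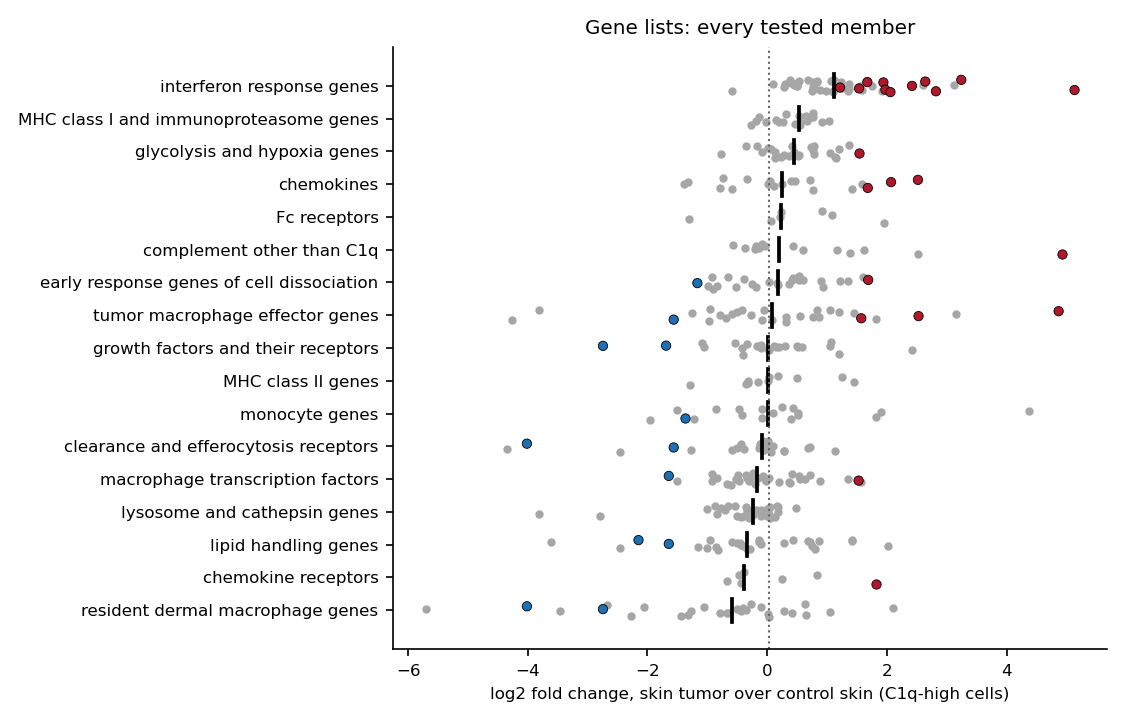
Log2 fold change of every tested member of 17 gene lists between skin tumors and control skins in C1q-high macrophages (x axis); filled red and blue points passed edgeR's test at an adjusted p under 0.05, grey points did not, black bars are list medians and the dotted line is the median of all genes (0.03). The median is 1.11 for the interferon list and -0.58 for the resident dermal macrophage list, the latter -0.16 without control skin 2.

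Of 28 tested genes of resident dermal macrophages, 0 rose and 2 fell, against 0.39% of all genes, with a median log2 fold change of -0.58 that moved to -0.16 without control skin 2. Both tumors lay below both control skins for 15 of the 28, against 20.7% of all genes. Cd163 (mm10, chromosome 6, 124304656 to 124330527), the receptor for hemoglobin and haptoglobin complexes, stood at 59.7 and 38.8 CPM in control skins and 2.55 and 3.52 CPM in skin tumors (log2 fold change -4.01, SE 0.35, adjusted p = 0.00269 by edgeR), a 16.2-fold lower level. Igf1 (chromosome 10, 87858265 to 87937042), a growth factor of tissue repair, stood at 279, 254, 38.0 and 41.6 CPM (log2 fold change -2.74, SE 0.21, adjusted p = 0.00226 by edgeR). Igf1 was found in 40.9% and 48.1% of gated control cells and in 12.7% and 14.7% of gated tumor cells, while lymphocytes reached at most 1.32%. Without thinning the gated shares were 52.3%, 64.7%, 21.9% and 28.5%. The most abundant member, Retnla, is a secreted product of alternatively activated macrophages and stood at 1300, 2809, 159 and 484 CPM, a difference that did not pass (adjusted p = 0.271 by edgeR).

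Of 29 tested lipid handling genes, 0 rose and 2 fell, against 0.523% and 0.39% of all genes, and the list's median was -0.34 (-0.62 to -0.089 with each library left out, the latter without control skin 1). Lpl, the lipoprotein lipase that frees fatty acids from lipoproteins, stood at 312, 557, 86.4 and 111 CPM (log2 fold change -2.15, SE 0.31, adjusted p = 0.0207 by edgeR). Pparg, the nuclear receptor that acts on fatty acid storage genes, stood at 165, 189, 59.4 and 54.2 CPM (log2 fold change -1.64, SE 0.21, adjusted p = 0.0114 by edgeR). Trem2, a receptor for lipids and dying cells, stood at 199, 300, 73.4 and 96.9 CPM (log2 fold change -1.56, SE 0.26, adjusted p = 0.0298 by edgeR). With Cd163 it was 1 of the 2 falls among 22 tested clearance receptors, against 0.39% of all genes. Apoe, the most abundant lipid gene, stood at 6067, 9759, 7528 and 6818 CPM, with overlapping groups and an adjusted p = 0.914 (edgeR). No tumor reached a control skin for Lpl, Pparg and Trem2, which was a condition for their being named among the largest falls. Of all genes tested, 20.7% were below both control skins in both tumors.

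Igf1 was 1 of 2 falls among 24 growth factors and their receptors, against 0.39% of all genes. The other was Gdf15, a stress-induced cytokine that acts on appetite, at 892, 549, 189 and 257 CPM (log2 fold change -1.69, SE 0.29, adjusted p = 0.0381 by edgeR), and its call was lost in an alternative gate (adjusted p = 0.0537) and with equal cell numbers (0.246). Vim, the gene of the intermediate filament vimentin, stood at 2653, 2844, 576 and 1072 CPM (log2 fold change -1.74, SE 0.32), with an adjusted p = 0.0491 (edgeR) that exceeded the threshold after RLE scaling. Other falls of at least 50 CPM on average were Lhfpl2 (174, 130, 17.1 and 33.5 CPM), the calcium-binding membrane protein gene Mctp1 (281, 279, 58.0 and 76.7 CPM), Arhgap6 (110, 112, 24.8 and 35.2 CPM) and the phosphatase family gene Mtmr10 (129, 145, 33.0 and 48.0 CPM). The pyrophosphate transporter gene Ank (74.0, 92.9, 25.1 and 34.7 CPM) and the lectin gene Clec4b1 (173, 145, 68.7 and 50.04 CPM) fell by less. Among 18 tested monocyte genes, the ribonuclease gene Ear2 was the only one to fall (196, 153, 62.1 and 71.4 CPM; log2 fold change -1.38, SE 0.22), against 0.39% of all genes. Its value is uncertain where reads are shared within the Ear family, and its call was lost at a C1q threshold of 40, with the threshold per 10000 UMIs, with thinned cells and with equal cell numbers (adjusted p from 0.0517 to 0.265 by edgeR).

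Several lists of macrophage function had no call, which does not show that their levels were equal. In all 35 tested lysosome and cathepsin genes, 19 tested genes of MHC class I and the immunoproteasome, 11 of MHC class II and 7 Fc receptors, edgeR called 0 higher and 0 lower. At an unadjusted p under 0.05, which 6.42% of all genes reached as higher and 6.57% as lower, the lysosome list had 0 higher and 6 lower, the MHC class I list 9 and 0, the MHC class II list 1 and 0, and the Fc receptors 3 and 1. DESeq2, which called 125 higher and 179 lower of all 11286 genes, called 0 and 4, 1 and 0, 0 and 0, and 2 and 1 in the same order. The MHC class I list had a median log2 fold change of 0.53 (0.34 without control skin 2), and both tumors lay above both control skins for 11 of its 19 genes, against 24.1% of all genes. The lysosome list had a median of -0.24 (-0.077 without control skin 2). The MHC class II median was 0.02, and its most abundant gene Cd74, the invariant chain, stood at 15110, 10118, 10227 and 9430 CPM. Of 34 macrophage transcription factors, Hif1a rose and Pparg fell, against 0.523% and 0.39% of all genes.

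Of the macrophage markers that the study names, Ccl8 and Cxcl10 passed the test and are given with the chemokines, while Vcam1, Cx3cr1, Maf and Mgl2 did not. The study compared these markers between its macrophage sub-clusters, a different contrast from skin tumor against control skin in gated cells. A missed threshold here therefore does not bear on that comparison. Vcam1, an adhesion molecule, stood at 10.4 and 45.6 CPM in control skins and 314 and 245 CPM in skin tumors, but missed the threshold (log2 fold change 3.15, SE 0.57, adjusted p = 0.120 by edgeR). It was found in 4.55% and 5.93% of gated control cells and 45.1% and 42.0% of gated tumor cells, and in 0 to 1.02% of lymphocytes. DESeq2, the fit without a filter on low counts and 4 other alternatives with all 4 libraries put Vcam1 past the threshold. Cx3cr1, the fractalkine receptor, stood at 66.2, 70.3, 185 and 57.6 CPM, and Maf, a transcription factor of mature macrophages, at 225, 288, 471 and 215 CPM. In both genes skin tumor 1 was high and skin tumor 2 was within or below the control skins.

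The mannose receptor gene Mrc1 stood at 771, 1355, 645 and 704 CPM and the lectin gene Mgl2 at 342, 280, 241 and 273 CPM, with adjusted p = 0.377 and 0.685 by edgeR. The scavenger-type lysosomal gene Cd68 stood at 477, 532, 283 and 269 CPM (log2 fold change -0.87, SE 0.21, adjusted p = 0.106 by edgeR), and Ms4a7 at 534, 603, 430 and 265 CPM (adjusted p = 0.298 by edgeR). Adgre1, Itgam, Fcgr1 and the folate receptor gene Folr2 had log2 fold changes of -0.58, 0.59, 0.21 and -0.35, with adjusted p from 0.274 to 0.852 by edgeR. The monocyte genes Plac8 and Ly6c2 stood at 173, 153, 180 and 166 CPM and at 256, 82.2, 67.2 and 48.4 CPM. None of these genes passed the test.

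**Figure D4:**
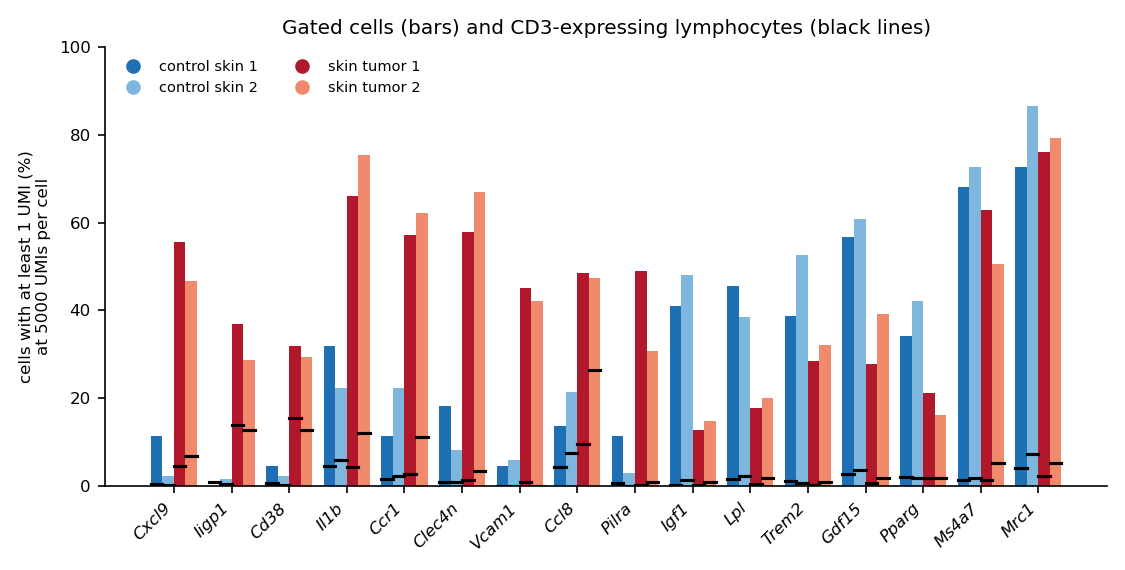
Percent of gated cells with at least 1 UMI of 16 genes after thinning to 5000 UMIs per cell (bars, 1 per library) and the same percent of CD3-expressing lymphocytes of that library (black lines). Cxcl9 is in 55.5% and 46.8% of gated tumor cells against 11.4% and 2.22% of gated control cells, and Igf1 in 12.7% and 14.7% against 40.9% and 48.1%.

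Lymphocytes of the same libraries held several of the rising genes in as large a share of cells. Gbp4 was in 22.6% and 16.4% of gated tumor cells, against 23.4% and 27.4% of tumor lymphocytes, and AW112010 in 81.7% and 66.5%, against 95.4% and 83.8%. Ccl5, which T cells make, was in 34.1% and 39.9% of gated tumor cells and 74.0% and 47.9% of tumor lymphocytes. Lymphocytes can express these genes themselves, and the part of free RNA in these rises was not tested. For Iigp1 the gated cells had 36.9% and 28.7% in tumors, above the 14.0% and 12.8% of lymphocytes. Median UMIs of the lymphocytes were 10933, 11144, 12820 and 9982 before thinning.

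Gated cells varied along their C1q level. Within each library the cells, thinned to 5000 UMIs, were ranked by C1q UMIs and split into 3 sets of equal size, and the lowest and highest sets were compared without a test. In skin tumor 1, Ccl8 stood at 308 CPM in the lowest and 3504 CPM in the highest set, and in skin tumor 2 at 286 and 3589 CPM. In control skin 2 the same sets held 244 and 560 CPM, and in control skin 1, with 14 cells per set, 143 and 0 CPM. Ms4a7 stood at 174 and 885 CPM in skin tumor 1 and at 119 and 566 CPM in skin tumor 2, and Apoe at 3476 and 13277 CPM and at 2863 and 11986 CPM. These 3 genes were higher in the C1q-rich set of both tumors. In control skin 2, with 45 cells per set, Apoe stood at 5444 and 11662 CPM and Ms4a7 at 342 and 871 CPM. In control skin 1 Apoe ran the other way, at 6014 and 4771 CPM, and Ms4a7 stood at 400.0 and 657 CPM.

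Monocyte genes ran the other way in the same sets. Plac8 stood at 482 CPM in the lowest and 61.9 CPM in the highest C1q set of skin tumor 1, and at 270 and 57.1 CPM in skin tumor 2. Ly6c2 stood at 200 and 29.8 CPM and at 90.0 and 18.6 CPM. Il1b followed the monocyte genes, at 1913 and 608 CPM in skin tumor 1 and 2007 and 981 CPM in skin tumor 2, whereas it stood at 307 and 280 CPM in control skin 2 and ran the other way in control skin 1, at 343 and 643 CPM. Ccr2 differed less, at 359 and 298 CPM and at 266 and 180 CPM. Cxcl9 stood at 759 and 1516 CPM and at 480 and 837 CPM, and Igf1 at 12.2 and 74.0 CPM and at 21.4 and 90.0 CPM. Igf1 was therefore higher in C1q-rich tumor cells than in C1q-poor ones, while remaining below the 178 and 316 CPM of the lowest and highest sets of control skin 2.

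Detection of 17 pairs of genes was compared cell by cell, and the pairs given here were chosen after their values had been seen. Among gated cells of skin tumor 1, Ccl8 was found in 73.3% of cells with a Vcam1 UMI and 28.3% of cells without, and in skin tumor 2 in 75.1% and 27.0%. In the control skins, where 4.55% and 5.93% of cells held a Vcam1 UMI, Ccl8 was found in 0 and 25% of cells with one and 14.3% and 21.3% of cells without. Ms4a7 was found in 51.8% of cells with a Ccr2 UMI and 75.4% of cells without in skin tumor 1, and in 37.6% and 61.7% in skin tumor 2. Cxcl9 was found in 67.1% of cells with an Iigp1 UMI and 48.7% of cells without in skin tumor 1, and in 62.8% and 40.3% in skin tumor 2. Mrc1 was found in 48.1% of cells with a Ly6c2 UMI and 80.6% of cells without in skin tumor 1, and in 49.0% and 83.5% in skin tumor 2. Detection differed by less for Cx3cr1 with Ccr2 and for Il1b with Mrc1. Ccr2 was found in 50.9% of cells with a Cx3cr1 UMI and 54.8% of cells without in skin tumor 1, and in 45.1% and 46.3% in skin tumor 2. Mrc1 was found in 72.3% of cells with an Il1b UMI and 83.6% of cells without in skin tumor 1, and in 78.9% and 80.8% in skin tumor 2. All cells in these counts were thinned to 5000 UMIs, and cells of 1 library are not replicates.

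The genes most like C1q across cells were sought over 12 sums, of 3 cell sets in 4 libraries. The cell sets were the C1q-high cells, C1q-low monocyte-like cells (at most 3 C1q UMIs, at least 2 of Ly6c2 plus Plac8, at most 20 of S100a8 plus S100a9) and cDC2-like cells (at least 2 UMIs of Cd209a and 5 of H2-Ab1), and 3153 genes of at least 50 CPM were compared by Pearson's r with the summed C1q genes on the log2(CPM + 1) scale. The 10 highest were Sh3glb1 (0.955), Kif1b (0.955), Cpeb4 (0.954), Zfhx3 (0.951), Itm2b (0.939), Akr1a1 (0.928), Wwp1 (0.927), Tmem106a (0.924), Nckap1l (0.924) and Ccl8 (0.923). Ccl8 stood at means of 1093 CPM of summed UMIs in C1q-high cells, 39.3 in monocyte-like and 18.8 in cDC2-like cells. The sums share libraries and the cell sets were chosen by C1q, so these values are a description.

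The difference between skin tumors and control skins was set against that of the C1q-low monocyte-like cells of the same libraries, of which there were 27, 94, 373 and 110. In a fit with both cell sets and the library as a block, 2 of 9752 genes (0.0205%) had a larger tumor difference in C1q-high macrophages and 4 (0.041%) a smaller one, by edgeR's quasi-likelihood test at an adjusted p under 0.05. The larger ones were Slpi and Ccr1. The smaller ones were Cxcl9, AA467197, Retnla and Mfge8, the last with a mean below 50 CPM. These counts moved from 1 to 124 and from 4 to 155 over alternative fits with the monocyte-like cells.

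In this fit Ccr1 stood at 53.8, 89.3, 238 and 288 CPM in C1q-high cells and at 156, 312, 247 and 309 CPM in monocyte-like cells, so that the C1q-high cells of control skins lay below the other 6 sums (difference of log2 fold changes 1.63, SE 0.22, adjusted p = 0.04999 by edgeR). RLE scaling or leaving out either skin tumor put this adjusted p above 0.05. In cDC2-like cells Ccr1 rose too (log2 fold change 1.31, adjusted p = 0.00813 by edgeR). Retnla, at 1313, 2842, 164 and 491 CPM in C1q-high cells, stood at 2.11, 4.30, 5.03 and 14.5 CPM in monocyte-like cells (difference -4.29, SE 0.38, adjusted p = 0.00536 by edgeR). The monocyte-like levels of Retnla rest on 1, 5, 24 and 21 UMIs, so that this fitted difference depends on the prior count. A Retnla UMI was found in 11.4%, 16.3%, 5.49% and 10.9% of gated cells at 5000 UMIs, and the lowest C1q sets of the control skins held 1614 and 2476 CPM against 229 and 956 CPM in the highest. Slpi, a secreted protease inhibitor, stood at 19.7, 9.49, 25.7 and 74.8 CPM in C1q-high cells and at 1176, 813, 231 and 520 CPM in monocyte-like cells (difference 3.22, SE 0.28, adjusted p = 0.00536 by edgeR).

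Cxcl9 had 0 UMIs in the monocyte-like cells of both control skins and 2722 and 883 UMIs in those of the skin tumors. The 95% counting interval of the ratio of their CPM starts at 275. Control skin 1 held 569 CPM of Cxcl9 in its C1q-high cells. The difference between the cell sets was called (adjusted p = 0.0369 by edgeR), but without control skin 1 its adjusted p was 0.490, the highest over the alternatives. AA467197 stood at 59.0, 13.8, 75.5 and 171 CPM in C1q-high cells and at 2.11, 0.861, 177 and 231 CPM in monocyte-like cells (adjusted p = 0.04999 by edgeR). In the monocyte-like cells of the control skins it had 1 UMI each. The fitted log2 differences of Cxcl9 and AA467197 depend on the prior count and are no bounds.

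**Figure D5:**
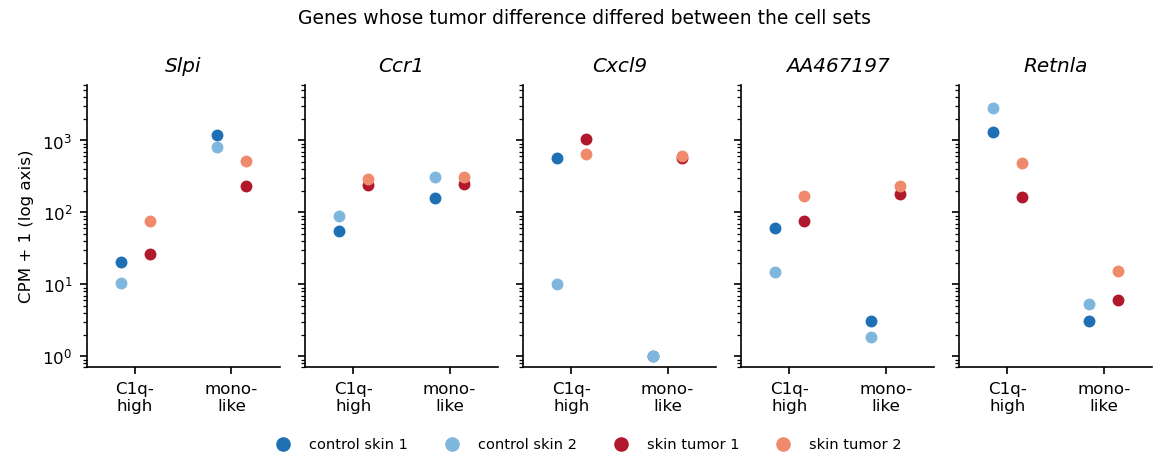
Level of the 5 genes of at least 50 CPM whose tumor difference differed between C1q-high macrophages and C1q-low monocyte-like cells, as CPM + 1 on a log axis, with 1 point per library and cell set. Ccr1 is lowest in the C1q-high cells of the 2 control skins (53.8 and 89.3 CPM), and Cxcl9 is at 0 in the monocyte-like cells of both.

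Of the 48 listed interferon response genes, 0 passed the test of the difference between the cell sets by edgeR. At an unadjusted p under 0.05, 0 were larger and 7 smaller in C1q-high cells, against 3.9% and 5.19% of all genes, and the median difference was -0.08 beside -0.04 for all genes. Within the monocyte-like cells, 5 of 46 tested members rose and 0 fell against 0.434% and 0.124% of all genes there, with a median log2 fold change of 1.26, and within cDC2-like cells 29 of 45 rose and 0 fell against 5.52% and 8.66%, with a median of 1.99. Resident dermal macrophage genes had a median difference of -0.45. Of 28 tested, Retnla was the only one called, as smaller, against 0.041% of all genes. At an unadjusted p under 0.05, 3 of these genes were larger and 7 smaller, against 3.9% and 5.19% of all genes. With cDC2-like cells in place of monocyte-like cells, 138 genes had a larger and 62 a smaller tumor difference in C1q-high macrophages, and of the calls against monocyte-like cells 0 of the 2 larger (adjusted p = 0.398 for Ccr1 and 0.822 for Slpi by edgeR) and 1 of the 4 smaller were called there.

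Transcripts of other cell types were present in the gated cells and differed between libraries. B and plasma cell markers summed to 54.5, 110, 85.4 and 788 CPM, led by Ighm at 45.5, 89.9, 74.2 and 333 CPM, and Igkc stood at 0, 8.52, 0.35 and 403 CPM, so that skin tumor 2 stood apart. Neutrophil markers summed to 134, 136, 262 and 454 CPM and led with Il1r2, while the defining gene Ly6g was at 0 in all 4 libraries. Mast cell markers summed to 3.90, 23.9, 15.6 and 86.5 CPM. T and NK cell markers summed to 170, 266, 29.3 and 171 CPM, with Icos the most abundant. Trdc, a constant gene of the gamma delta T cell receptor, had 11, 39, 1 and 1 UMIs. This is 14.3 and 16.6 CPM in control skins and 0.0319 and 0.103 CPM in skin tumors. The control skins alone carried Trdc past the filter on low counts, so its call is given as a description. Trdc was the only edgeR call among 17 tested T and NK cell markers, against 0.39% of all genes called lower. Of the 17, 0 were higher and 2 lower both at an unadjusted p under 0.05 and by DESeq2. Of all genes, 6.42% were higher and 6.57% lower at that unadjusted threshold, and DESeq2 called 125 higher and 179 lower of 11286. Neutrophil, mast and B cell lists had no edgeR call among 6, 5 and 3 tested, with 3, 1 and 0 higher at an unadjusted p under 0.05 and the same numbers by DESeq2. Their part in the results was not tested, but without the cells that held more than 2 UMIs of another lineage's markers the counts were 58 higher and 41 lower, with 52 of the 59 rises and 33 of the 44 falls still called.

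Langerhans cell markers summed to 444, 566, 499 and 446 CPM, with 1 fall among 9 tested (Cdh1), against 0.39% of all genes. The cDC2 markers summed to 1009, 999, 689 and 777 CPM with no call by edgeR among 12, and cDC1 markers to 583, 449, 897 and 590 CPM with no call by edgeR among 10. At an unadjusted p under 0.05, 1 cDC2 marker was higher and 4 were lower, and 5 cDC1 markers were higher and 1 was lower. Of all genes tested, 6.42% were higher and 6.57% lower at that threshold. DESeq2 called 0 higher and 1 lower in each list, against 125 higher and 179 lower of all 11286 genes. Mature dendritic cell markers summed to 478, 344, 539 and 719 CPM, with 1 rise among 10, which was Ccl5, against 0.523% of all genes. Keratinocyte, fibroblast, endothelial and erythrocyte markers each summed to at most 80.5 CPM in any library, with no call by edgeR among the 3, 6, 2 and 0 members tested. Of the fibroblast list, 0 members were higher and 3 lower at an unadjusted p under 0.05 and DESeq2 called 2 lower, and in the other lists both counts were 0. Krt1 and Cldn5 were at 0 throughout. Cell cycle genes, of which the gate had removed the strongest, summed to 479, 436, 395 and 397 CPM with no call by edgeR among 17 (2 higher at an unadjusted p under 0.05, 0 by DESeq2).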

How the data were processed

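The deposited files were UMI counts per gene and cell of 4 CD45+ libraries, made by the authors with 10x 3′ chemistry and Cell Ranger on mm10. The submitters' processing notes name version 7.1.0 and the matrix headers 7.0.1, and how intronic reads were counted is not given in the sources used here. The files held 31053 genes and 14795 cells. Sums of 836104 to 28164548 UMIs per library set the precision, and control skin 1 with 44 gated cells was the least precise.

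Cells were gated on raw UMIs (1 clause of the gate is not reported here), and UMIs were summed per library. The members and gene lists were chosen with earlier results of these data known. Sums were tested with edgeR 4.0.16 in R 4.3.3 (TMM scaling, filterByExpr, robust quasi-likelihood fit, Benjamini-Hochberg adjustment over all genes tested), as were the cell set comparisons with the library as a block. The study's own tests used cells as units, which was not done here. CPM are UMI counts per 1000000, scaled by TMM, and 3′ UMIs were not divided by transcript length. On simulated counts for the tumor comparison, the fit recovered 16% of genes changed by a log2 of 1 and 95% of those changed by 2, with 18 false calls among 10932 genes.

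Genes named were the 12 largest rises and falls past the threshold with a mean of at least 50 CPM and no overlap between groups (leaving out gate, immunoglobulin, T cell receptor, mitochondrial, ribosomal protein, sex-linked, Gm-numbered and Rik genes), up to 3 per direction in each list, label markers and macrophage genes the study names, abundant genes of the cell set test, the 10 genes most like C1q, and each list's most abundant member. Trdc, Mfge8, Cdh1, Htr7, Ifnb1, Ccr2, Flt3, Cxcl9, further interferon genes and the markers of other cell types were named after their values had been seen.

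For shares of cells with a UMI, cells were thinned to 5000 UMIs, which left out 0, 4, 17 and 3 gated cells. Lymphocytes (at least 3 Cd3e UMIs and no Csf1r) were the background. Doublets were not removed except in an alternative, which took out 0, 2, 70 and 7 gated cells by the deposited cell numbers. Alternatives were RLE scaling, DESeq2 1.42.0, no filter, a replicate block, each library left out, other gates and cell filters, and thinning. Equal cell numbers, removal of each gene's highest cell and gating after thinning were chosen after seeing the data. Python 3.11.15, numpy 2.4.6, pandas 2.3.3, scipy 1.17.1, scanpy 1.11.5 and matplotlib 3.10.9 were used.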

Additional observations from a re-analysis of the deposited data

Results flagged for a closer look

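For 5 genes of at least 50 CPM, the log2 difference between skin tumors and control skins in C1q-high macrophages differed from that in C1q-low monocyte-like cells by edgeR's quasi-likelihood interaction test. The C1q-high value minus the monocyte-like value was 3.22 for Slpi, 1.63 for Ccr1, -4.29 for Retnla, -5.28 for AA467197 and -12.6 for Cxcl9. In the monocyte-like cells of control skin 1 and 2, Cxcl9 had 0 UMIs in each, AA467197 1 UMI in each, and Retnla 1 and 5 UMIs, so that these 3 values depend on the prior count.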

How the results depend on the processing

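The 59 rises and 44 falls became 398 and 320 without a filter on low counts (where the median of all genes was 0.29), 125 and 179 by DESeq2, 128 and 106 without each gene's highest cell, and 7 and 5 with equal cell numbers. Leaving out each library gave 0 to 428 rises and 0 to 547 falls. Against monocyte-like cells, the 2 larger and 4 smaller differences became 1 larger under RLE scaling (4 smaller there too), 98 and 148 without a filter, 5 and 7 with doublets removed, 4 and 11 with other lineages removed, 12 and 31 with thinned cells, and 138 and 62 against cDC2-like cells. They ranged from 3 to 124 and from 6 to 155 with each library left out.

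The replicate number as a block gave 136 rises and 139 falls, with all 59 and 44 calls still called. The numbers share no stated pairing, and deviations of replicate 1 correlated by 0.049 across genes between control skin and skin tumor.

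The mean share of gated cells in skin tumors was 30.6% over cells of at least 5000 UMIs. The chemokine median was -0.042 with thinned cells and -0.16 to 0.89 with each library left out. The chemokine receptor median was -0.38 in the reported fit and -0.12 to -0.088 with each library left out, but 0.33 with the threshold per 10000 UMIs, 0.41 thinned, 0.046 with equal cell numbers and 0.63 without each gene's highest cell. Apoe turned to 0.15 with equal cell numbers, and Plac8 to -0.036 in an alternative gate, -0.018 with other lineages removed and -0.19 with equal cell numbers. With each library left out, log2 fold changes ran from -0.43 to 0.28 for Apoe, -0.20 to 0.53 for Fcgr1, -0.82 to 0.69 for Folr2, -0.25 to 1.43 for Cx3cr1 and -0.26 to 0.86 for Maf. The medians of the effector and MHC class II lists ran from -0.056 to 0.31 and from -0.11 to 0.13 with each library left out. The calls of Trem2 and Lhfpl2 were lost in an alternative gate (adjusted p = 0.0681 and 0.105 by edgeR). With equal cell numbers the calls of most named genes were lost. With thinned cells the calls of Gbp5, Gbp7, Gbp8, Nos2, Ank and Clec4b1 were lost (adjusted p from 0.0517 to 0.269 by edgeR). The causes were not tested. Of the values of named genes under the alternatives, 727 kept direction and side of the threshold, 145 lost the call, 18 gained one and 9 turned in direction.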
